A study of Mus musculus with 12 samples.

Results

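The EDL (extensor digitorum longus, a hind limb muscle made up mostly of fast-twitch fibers) was compared between mice that were both labelled strNrip1-/- and trained and mice that were labelled WT and sedentary, so that each value below holds the difference of genotype and of running together. The comparison used 6 of the 12 RNA-seq libraries of the series: 3 from trained strNrip1-/- mice and 3 from sedentary WT controls, chosen by their labels alone. The other 6 libraries were 3 from sedentary strNrip1-/- mice and 3 from trained WT mice. They entered the estimate of the spread, and their values are set beside the comparison for many of the genes. All mice were male, and voluntary wheel running or sedentary housing began at 8 weeks of age. The strNrip1-/- mice carried floxed Nrip1 alleles and a Cre transgene driven by the muscle creatine kinase promoter, which is active in striated muscle fibers of heart and limb and not in the other cells of a muscle. The controls were littermates without Cre. The floxed line was kept on C57BL/6J and the Cre mice were C57BL/6JN. Per the study's methods, wheels were removed before tissue was taken and mice that ran little were left out. The labels number 3 samples per group but do not tie each to an animal, so the p-values measure the spread between these samples.

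Nrip1 encodes RIP140, a corepressor that binds ligand-activated and orphan nuclear receptors, among them the estrogen-related receptors and PPARs, and recruits histone deacetylases and other repressive proteins to their target genes. In muscle these receptors, together with the coactivator PGC-1alpha, drive genes of fatty acid uptake and oxidation, the TCA cycle and the respiratory chain. Endurance training is known for raising the same kinds of genes, along with capillary growth and shifts in contractile and synaptic proteins. The study asked how the loss of RIP140 bears on this program and on the training response.

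The measured level of the targeted gene was higher in the libraries labelled as deficient in it. Nrip1 (ENSMUSG00000048490; chr16:76287400-76373827, minus strand, GRCm38) stood at 20.7, 14.9 and 16.6 FPKM (fragments per kilobase of transcript, scaled for depth) in the 3 trained libraries labelled strNrip1-/- and at 3.60, 2.55 and 3.84 FPKM in the 3 sedentary libraries labelled WT. It was 15.5, 16.3 and 14.9 FPKM in the sedentary libraries labelled strNrip1-/- and 2.53, 4.76 and 3.56 FPKM in the trained libraries labelled WT. Every library labelled strNrip1-/- thus had a higher Nrip1 FPKM than every library labelled WT, with a log2 difference of 2.23 ± 0.20 (± SE, as for every log2 difference below) in the combined comparison (adjusted p = 0.000157; limma with Benjamini-Hochberg adjustment, as throughout). FPKM is scaled by transcript length, so it is not a count of fragments. Values per gene do not show from which exons the fragments came, and the coding sequence lies in a single exon that the deletion removes. The groups are therefore called "labelled strNrip1-/-" and "labelled WT", and each direction below rests on those labels.

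The 12 libraries held 19.96 to 29.18 M fragments (M for mega), estimated from the spacing of low values. Markers of muscle were high in every library, with Ckm, the muscle creatine kinase, at 12618 to 13125 FPKM in the trained labelled strNrip1-/- libraries and 14088 to 15481 FPKM in the sedentary labelled WT libraries. RNA typical of liver and of small intestine was also present, and 3 libraries (sedentary labelled WT 2, sedentary labelled strNrip1-/- 1 and trained labelled WT 2) held slow-fiber Myh7 above 15 FPKM. These values are given beside the results that they touch.

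Among the 12744 genes that averaged 0.5 FPKM or more over the 12 libraries, 800 were called in the combined comparison, 477 higher and 323 lower in trained labelled strNrip1-/- muscle. A gene was called at an adjusted p under 0.05 and a fold change above 1.2 on the log2(FPKM + 0.5) scale, on which low genes are understated. The calls were 6.28% of the genes tested, 3.74% in the higher and 2.53% in the lower direction, and 2723 genes had an unadjusted p under 0.05. Fold changes were mostly small: the median log2 difference was 0.59 among genes called higher and -0.53 among genes called lower, while that of all tested genes was 0.0040. A fold change above 2 was reached by 83 genes called higher and 47 called lower. For all 800 calls the 3 libraries of one group lay outside the range of the 3 of the other, as they did for 30.2% of all tested genes. Of the genes called higher, 170 had their 3 trained labelled strNrip1-/- values above all 9 other libraries of the series, and of those called lower, 83 had them below all 9. The same was not counted over all tested genes, and called genes were picked by their values in this group. These 2 counts therefore do not show a trait particular to it.

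**Figure D1:**
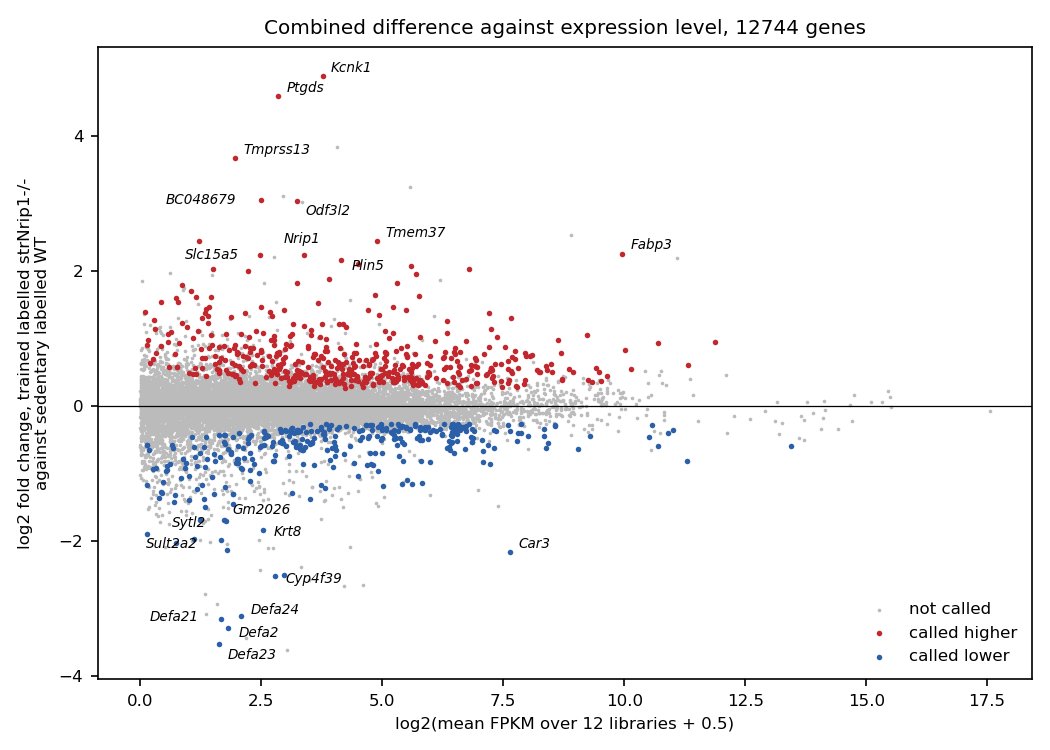
Log2 difference between trained labelled strNrip1-/- and sedentary labelled WT EDL (vertical axis) against log2 of the mean FPKM over 12 libraries plus 0.5 (horizontal axis), 1 point per gene. The 477 genes called higher are red, the 323 called lower blue and the rest gray, and the 10 largest rises and falls among well-expressed protein-coding genes are named.

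The number of calls depended on single libraries. Without sedentary labelled WT library 1, 2 or 3 it was 440, 512 and 450, and without trained labelled strNrip1-/- library 2 or 3 it was 456 and 416. With each library rescaled by its nuclear-encoded genes, 741 genes were called and 76.4% of them were higher, against 59.6% as deposited.

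The other contrasts of the same fit are given beside the combined comparison, and their counts of calls do not divide it between genotype and running. Between the sedentary groups, labelled strNrip1-/- against labelled WT, 447 genes were called (3.51%). Between the trained groups, 762 were called (5.98%). Running alone gave no call in labelled WT muscle (0%; smallest adjusted p = 0.0593, 1061 genes at an unadjusted p under 0.05) and none in labelled strNrip1-/- muscle (0%; 1544 genes at an unadjusted p under 0.05), by limma. The genotype by training interaction passed its threshold for no gene either (0%; smallest adjusted p = 0.335, 989 genes at an unadjusted p under 0.05). These contrasts share libraries with the combined comparison, so the terms are given side by side and were not used as separate evidence. With 3 libraries a group, a run-related difference that missed the threshold is not shown to be absent.

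The largest rises besides that of Nrip1 are given first. Kcnk1 (chr8:125995170-126030685, plus strand, GRCm38), a K2P-type potassium channel, was 25.6, 38.5 and 24.6 FPKM in the trained labelled strNrip1-/- libraries and 0.495, 0.514 and 0.474 FPKM in the sedentary labelled WT libraries. Ptgds, the prostaglandin D2 synthase, was 13.5, 19.4 and 17.6 against 0, 0.244 and 0.480 FPKM. Both genes were low in all 6 libraries labelled WT and higher, without overlap, in all 6 labelled strNrip1-/-, with log2 differences of 4.89 ± 0.23 and 4.59 ± 0.27 (adjusted p = 8.23e-07 and 6.20e-06). Tmprss13, a membrane serine protease, was 7.07, 5.48 and 6.46 against 0.0294, 0.0137 and 0.0685 FPKM, the latter near or below the level of 3 fragments on a gene of 2 kb (0.0514 to 0.0752 FPKM by library), so the size of its log2 difference of 3.66 depends on the pseudocount (adjusted p = 6.03e-08).

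Fabp3, the fatty acid-binding protein of heart and oxidative muscle, was by far the most abundant of these genes. Its level was 1690.4, 1917 and 1628 FPKM in trained labelled strNrip1-/- and 325, 409.6 and 362 FPKM in sedentary labelled WT muscle, a 4.78-fold difference (log2 2.26 ± 0.14, adjusted p = 7.65e-06). Plin5, which couples lipid droplets to mitochondria, was 23.6, 46.8 and 30.8 against 5.45, 8.03 and 7.37 FPKM (log2 2.16 ± 0.25, adjusted p = 0.000637). For both genes the trained labelled strNrip1-/- libraries lay above all others, the sedentary libraries of the same label included, which held 1312, 1586 and 1399.9 FPKM of Fabp3 and 16.5, 22.3 and 19.7 FPKM of Plin5. The increment over the sedentary group was not itself called.

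Tmem37, a transmembrane protein related to calcium channel gamma subunits, rose from 8.95 ± 1.09 to 50.5 ± 4.50 FPKM (mean ± SD, n = 3; adjusted p = 2.32e-05, limma). Slc15a5, a solute carrier of the peptide transporter family, rose from 1.02 ± 0.0477 to 7.04 ± 2.94 FPKM (n = 3; adjusted p = 0.00164, limma). In Slc15a5 the sedentary libraries labelled strNrip1-/-, at 11.1 ± 3.60 FPKM, reached higher than the trained ones. BC048679 rose from 1.03 ± 0.458 to 11.7 ± 1.13 FPKM (n = 3; adjusted p = 0.000163, limma), and all trained libraries of that label lay above the sedentary ones. Odf3l2 stood apart in this group: it was 13.8, 22.2 and 11.1 against 1.65, 1.89 and 0.830 FPKM (adjusted p = 0.0125), but it was also 2.38, 22.5 and 9.32 FPKM in trained labelled WT muscle, and its call was lost without sedentary labelled WT library 3 or trained labelled strNrip1-/- library 2 (adjusted p up to 0.0565).

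**Figure D2:**
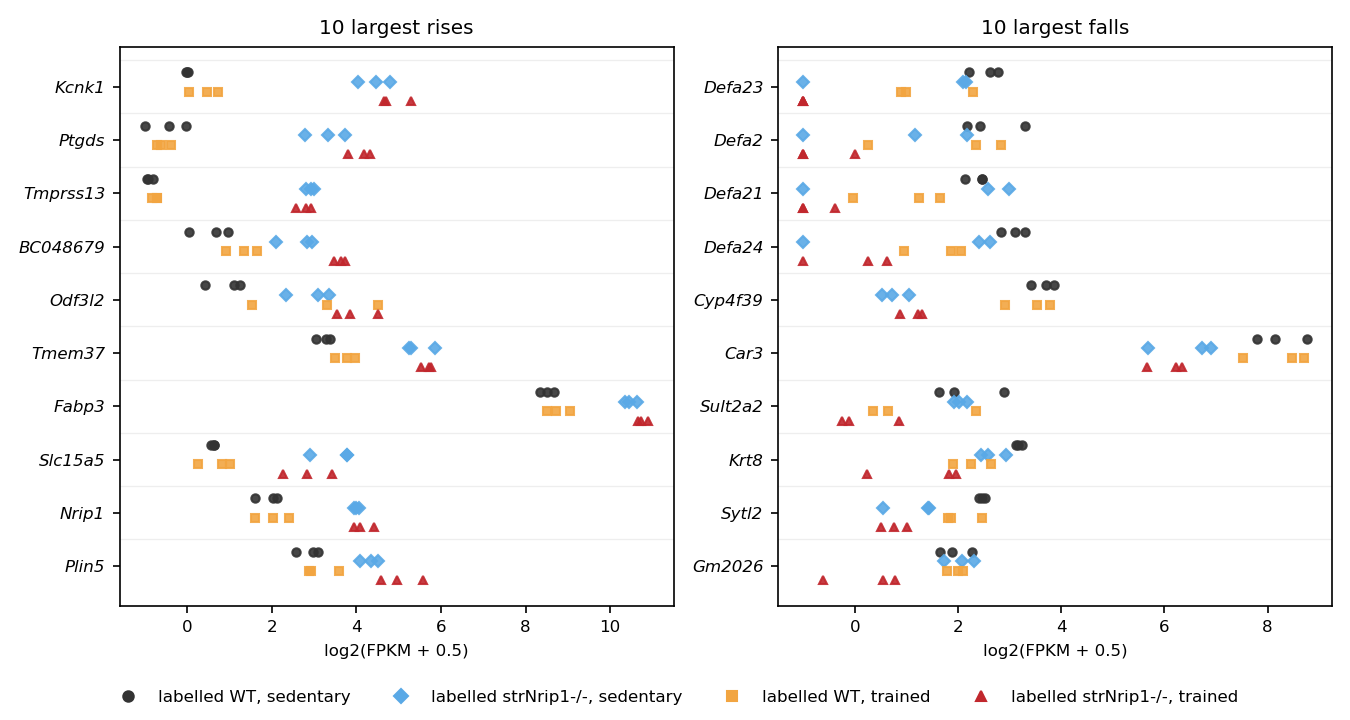
Log2(FPKM + 0.5) in each of the 12 libraries for the 10 genes with the largest rises (left) and the 10 with the largest falls (right) in the combined comparison, 1 point per library and 1 row of points per group. Among the rises the 6 libraries labelled strNrip1-/- lie above the 6 labelled WT in every gene except Odf3l2, and among the falls the sedentary labelled strNrip1-/- libraries overlap the sedentary labelled WT libraries in Sult2a2, Gm2026 and Defa21.

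Among the 10 largest falls, Cyp4f39, Car3 and Sytl2 were low in all 6 libraries labelled strNrip1-/-. Cyp4f39 (chr17:32452723-32493320, plus strand, GRCm38), a cytochrome P450 that hydroxylates very long-chain fatty acids, was 1.33, 1.84 and 1.96 FPKM in trained labelled strNrip1-/- and 12.6, 10.1 and 13.97 FPKM in sedentary labelled WT muscle (log2 -2.53 ± 0.22, adjusted p = 0.000157). Car3, the muscle and fat carbonic anhydrase, was 73.97, 50.01 and 80.99 against 434, 284 and 222 FPKM (log2 -2.16 ± 0.38, adjusted p = 0.00691). Sytl2, a synaptotagmin-like effector of Rab27 in vesicle transport, was 1.18, 0.915 and 1.51 against 5.25, 4.79 and 4.98 FPKM (log2 -1.71 ± 0.25, adjusted p = 0.00229). Trained labelled WT muscle kept Cyp4f39 at 13.3, 6.998 and 10.99 FPKM and Car3 at 355, 185 and 418 FPKM. Gm2026 was lower in trained labelled strNrip1-/- muscle than in both sedentary groups, with 1.22, 0.151 and 0.957 FPKM against 2.63, 3.20 and 4.30 in sedentary labelled WT and 4.48, 2.81 and 3.73 FPKM in sedentary labelled strNrip1-/- muscle (adjusted p = 0.00883).

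Most of the other large falls were in genes typical of small intestine or liver. Defa23, Defa2, Defa21 and Defa24 are alpha-defensins of the Paneth cells of the small intestine, a family of near-identical genes among which fragments cannot be placed with certainty. Defa23 was listed at 0 in all 3 trained labelled strNrip1-/- libraries and at 6.32, 5.64 and 4.13 FPKM in sedentary labelled WT (adjusted p = 0.0121). Krt8, a keratin of simple epithelia, was 3.39, 3.02 and 0.672 against 8.21, 8.43 and 8.92 FPKM (log2 -1.84 ± 0.37, adjusted p = 0.0143; 0.0533 without sedentary labelled WT library 3). Krt8 did not follow the alpha-defensins in every library: in sedentary labelled strNrip1-/- library 3 it was 7.08 FPKM, while their sum was 0.542 FPKM. Sult2a2, a liver sulfotransferase, was 0.424, 1.32 and 0.340 against 2.60, 3.30 and 6.93 FPKM (log2 -1.99 ± 0.49, adjusted p = 0.0364). The calls of Defa2, Defa21, Defa24 and Sult2a2 were lost in 6, 9, 8 and 6 of the 12 fits that left 1 library out, with adjusted p up to 0.113, 0.137, 0.151 and 0.132.

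Marker lists for these tissues, put together after these values had been seen, moved with the groups. All 12 liver genes were present, and their summed level was 575, 527 and 918 FPKM in sedentary labelled WT and 212, 383 and 210.2 FPKM in trained labelled strNrip1-/- muscle. It was 563, 654 and 920.2 FPKM in sedentary labelled strNrip1-/- and 586, 145 and 208 FPKM in trained labelled WT muscle, so 5 of the 6 trained libraries were below every sedentary library. Alb, the albumin gene, was the most abundant of them, with 195, 180.0 and 327 FPKM in sedentary labelled WT and 63.6, 125 and 65.2 FPKM in trained labelled strNrip1-/- libraries. Of the 12 liver genes tested, Apoa1 alone was called, beside 2.53% of all tested genes called lower. It was lower at a log2 difference of -1.16 ± 0.30 (adjusted p = 0.0422), and the list's median was -1.27.

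The small intestine list of 15 genes summed to 103, 87.2 and 133 FPKM in sedentary labelled WT and 38.6, 60.8 and 1.66 FPKM in trained labelled strNrip1-/- muscle. Of its 12 tested genes, Krt8 and Cdhr5 were called lower and none higher, beside 2.53% of all tested genes called lower. The list's median was -1.73. The 17 alpha-defensins listed summed to 56.3, 54.9 and 60.8 against 8.19, 7.48 and 0.282 FPKM. In sedentary labelled strNrip1-/- library 3 and trained labelled strNrip1-/- library 3 both sums were the lowest of their group, and Cdx1, Cdx2, Epcam and Fabp6 were at 0 in the latter. Of 4 plasma cell genes, 3 of them tested, Igkc was called lower, beside 2.53% of all tested genes. It was 3.30, 1.67 and 1.04 against 12.7, 13.2 and 12.3 FPKM. How much of the falls comes from such RNA was not tested further than by the fit that follows.

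With a liver score and a small intestine score as 2 covariates, an alternative chosen after seeing the data, 29 genes were called, of which 28 were among the 800. The scores take 2 of the 8 residual degrees of freedom and differ between the very groups compared, so the part that goes with the scores and the part that goes with the groups cannot be told apart. Of the genes described here, Kcnk1, Ptgds, Tmprss13, Nrip1, Fabp3, Tmem37, Cyp4f39, Fndc5, Etfdh, Esrra and Fgfbp1 stayed called in that fit. In that fit the median of the fatty acid oxidation list described below was 0.69 with 1 gene called, and that of the fast fiber list was -0.38 with 0 called. Other lists moved further in proportion, such as the oxidative regulators (0.19 to 0.12), the calcium handling genes (-0.11 to -0.057) and the heat shock genes (0.03 to -0.0061).

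**Figure D3:**
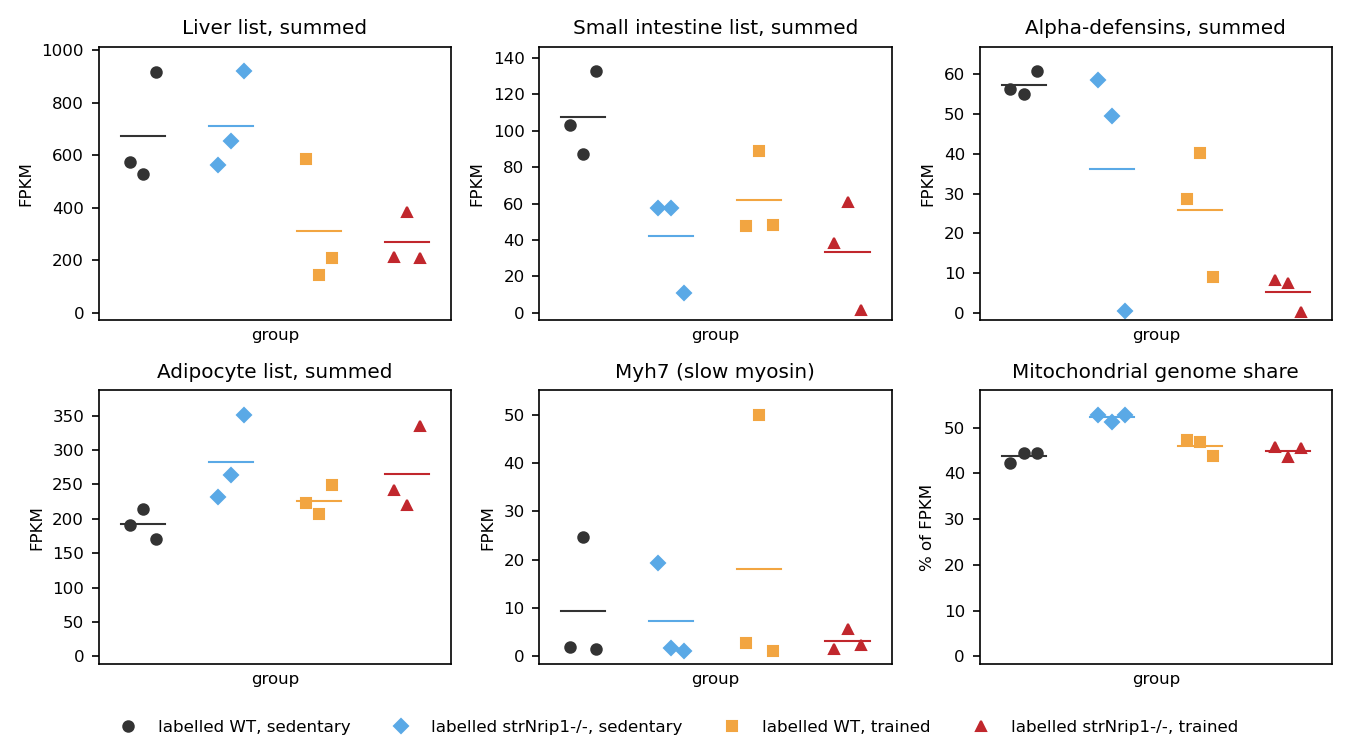
Level in each library (points) with the group mean (lines) of the summed liver, small intestine, alpha-defensin and adipocyte lists and of Myh7, in FPKM, and the share of FPKM from the mitochondrial genome, in percent. The summed liver and alpha-defensin levels were lower in all 3 trained labelled strNrip1-/- libraries than in the 3 sedentary labelled WT libraries, and Myh7 was above 15 FPKM in 1 library of each of the other 3 groups.

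Genes of fatty acid oxidation rose together. Of 22 genes, 20 were called higher and none lower, beside 3.74% of all tested genes called higher, and the median log2 difference was 0.66. The rise ran along the whole pathway: the carnitine shuttle (Cpt1b, Slc25a20, Cpt2), the acyl-CoA dehydrogenases (Acadvl, Acadl, Acadm, Acads), the trifunctional protein (Hadha, Hadhb), the thiolase Acaa2 and the electron transfer flavoprotein with its oxidoreductase (Etfa, Etfb, Etfdh). Called log2 differences ran from 0.43 for Eci2, an enoyl-CoA isomerase, to 1.18 for Acot2, a mitochondrial acyl-CoA thioesterase. The thioesterase Acot13 (0.21) and the carnitine acetyltransferase Crat (0.19) were the 2 genes not called (adjusted p = 0.38 and 0.122).

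Etfdh, which passes electrons from fatty acid oxidation to ubiquinone, was 98.7, 106 and 101 FPKM in trained labelled strNrip1-/- and 54.6, 59.9 and 60.01 FPKM in sedentary labelled WT muscle (log2 0.80 ± 0.068, adjusted p = 0.000123). Sedentary labelled strNrip1-/- muscle held 89.98, 87.3 and 88.98 FPKM and trained labelled WT muscle 62.8, 68.01 and 58.9 FPKM, so the trained labelled strNrip1-/- libraries were the highest, the sedentary ones of that label next, and all 6 labelled WT libraries below. Cpt2, the inner-membrane carnitine palmitoyltransferase, was 38.4, 42.5 and 45.5 against 22.6, 24.5 and 24.6 FPKM (log2 0.80 ± 0.077, adjusted p = 0.000257). Hadha, the alpha subunit of the trifunctional protein, was 234, 261 and 245 against 129.9, 143 and 133 FPKM (log2 0.86 ± 0.092, adjusted p = 0.000419). Cpt1b, the malonyl-CoA-regulated entry step, was 163, 180.2 and 162 against 122, 125 and 121 FPKM (log2 0.45 ± 0.069, adjusted p = 0.00294).

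Over the list, the median log2 difference was 0.51 for labelled genotype in sedentary muscle, 0.12 for running in labelled WT muscle and 0.076 for the interaction. Library by library, the list's median above the sedentary labelled WT mean was 0.60, 0.68 and 0.67 in trained labelled strNrip1-/-, 0.50, 0.56 and 0.42 in sedentary labelled strNrip1-/- and 0.075, 0.22 and 0.019 in trained labelled WT muscle. The first set lay above the second, and the second above the third, without overlap. With any 1 library left out, between 16 and 20 of the 22 genes were called.

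**Figure D4:**
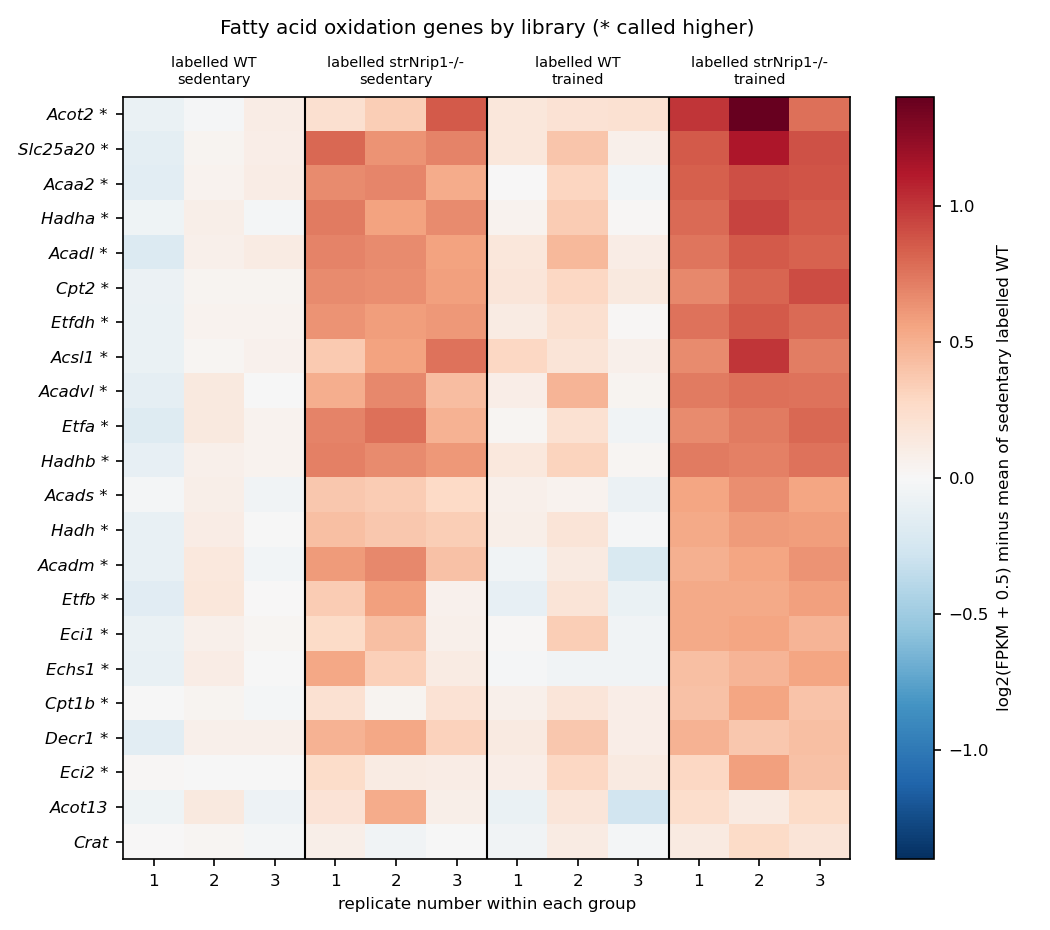
Log2(FPKM + 0.5) of the 22 fatty acid oxidation genes (rows) in the 12 libraries (columns, 3 per group), as the difference from the mean of the 3 sedentary labelled WT libraries (color). An asterisk marks the 20 genes called higher in the combined comparison, and Acot13 and Crat are the 2 without one.

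Of 23 genes of fatty acid uptake and lipid droplets, 11 were called higher and none lower, beside 3.74% of all tested genes called higher (median 0.64). Besides Fabp3 and Plin5, these were the transporters Cd36 and Slc27a1, the lipoprotein lipase Lpl, the lipases Pnpla2 (adipose triglyceride lipase) and Lipe (hormone-sensitive lipase), the triglyceride-synthesis genes Dgat2 and Lpin1, and Plin3 and Fitm2. The call of Plin3 was lost without any 1 of the 6 libraries compared (adjusted p up to 0.0979). Pnpla2 was 209, 278 and 228 FPKM in trained labelled strNrip1-/- against 114, 118 and 117 FPKM in sedentary labelled WT muscle (log2 1.02 ± 0.11, adjusted p = 0.000515). Cd36, the main fatty acid transporter of muscle, was 133, 155 and 138 against 62.6, 77.7 and 77.7 FPKM (log2 0.97 ± 0.11, adjusted p = 0.000627).

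Dgat2, which makes triglyceride, was 35.1, 64.4 and 51.9 FPKM in trained labelled strNrip1-/- libraries, 26.98, 28.7 and 28.9 in sedentary labelled strNrip1-/-, 16.5 to 21.2 in trained labelled WT and 11.8, 15.5 and 19.7 in sedentary labelled WT (log2 1.65 ± 0.21, adjusted p = 0.00111). Lpl was 195, 238 and 239 against 81.2, 109.7 and 115 FPKM (log2 1.14 ± 0.15, adjusted p = 0.00155). In both, trained labelled strNrip1-/- muscle was above all 9 other libraries. The lipid droplet coat gene Plin2 was not called, with a log2 difference of -0.17 (adjusted p = 0.594).

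Fat cells express several genes of this list too. The 7 adipocyte markers summed to 243, 219.8 and 335 FPKM in trained labelled strNrip1-/- and 192, 214 and 171 FPKM in sedentary labelled WT muscle. Cfd (adipsin) was called higher among 6 tested (log2 1.82 ± 0.47, adjusted p = 0.0439), beside 3.74% of all tested genes called higher. Adipoq, which defines fat cells, was 2.88, 3.38 and 6.58 against 3.23, 1.72 and 0.791 FPKM and was not called (adjusted p = 0.327). The part of fat cells in the rise of the lipid genes was not tested, and in bulk muscle more cells of a type and more RNA per cell cannot be told apart.

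Of 18 TCA cycle genes, 8 were called higher and none lower, beside 3.74% of all tested genes called higher. All 18 had a positive difference, as did 50.5% of all tested genes, and the median was 0.36. Ogdh, the E1 subunit of oxoglutarate dehydrogenase, was 395, 408 and 411 FPKM against 267, 266 and 271 FPKM (log2 0.59 ± 0.061, adjusted p = 0.000363), and Suclg2, a succinyl-CoA ligase subunit, was 38.3, 39.1 and 41.4 against 27.5, 28.03 and 28.1 FPKM (log2 0.50 ± 0.069, adjusted p = 0.00174). For both genes the groups compared lay apart, while sedentary labelled strNrip1-/- muscle overlapped the trained libraries of that label. Idh2, the mitochondrial isocitrate dehydrogenase, had the largest log2 difference of the list, 0.73 ± 0.14 (adjusted p = 0.00991). The count fell to 5 without sedentary labelled WT library 1 or 3 or trained labelled strNrip1-/- library 3 and reached 17 after rescaling by nuclear-encoded genes.

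Of 74 nuclear genes of oxidative phosphorylation (OXPHOS), 11 were called higher and none lower, beside 3.74% of all tested genes called higher. A positive difference was found in 70, beside 50.5% of all tested genes, and the median log2 difference was 0.23. Those called included genes of complexes I (Ndufa10, Ndufab1, Ndufb5, Ndufs1), III (Uqcrc1, Uqcrfs1, Cyc1), IV (Cox5a) and V (Atp5a1, Atp5b). Atp5b, the catalytic beta subunit of ATP synthase, was 3034, 3225 and 3221 FPKM against 2064, 2150.2 and 2009 FPKM (log2 0.61 ± 0.092, adjusted p = 0.00294). Uqcrc1, a core protein of complex III, was 358, 349.9 and 351 against 235, 257 and 244 FPKM (log2 0.52 ± 0.081, adjusted p = 0.00343). The number called was 3 without sedentary labelled WT library 1 or 3 or trained labelled strNrip1-/- library 3, and 30 after rescaling by nuclear-encoded genes.

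Of the 13 protein genes of the mitochondrial genome none was called, beside 6.28% of all tested genes. The median log2 difference was 0.058, and the 3 with the smallest adjusted p were mt-Co1 (0.22 ± 0.12, adjusted p = 0.338), mt-Cytb and mt-Nd4l. The 13 genes made up 45.7, 43.7 and 45.5% of all FPKM in the trained labelled strNrip1-/- libraries and 42.2, 44.6 and 44.5% in sedentary labelled WT. The difference of 1.23 percentage points did not exceed the spread (exact two-sided permutation test of 3 against 3, p = 0.300, where 0.10 is the smallest p possible). Sedentary labelled strNrip1-/- muscle was higher than both, at 52.8, 51.2 and 52.8%, while trained labelled WT muscle was at 47.3, 46.8 and 43.8%. Per gene, the list's median was 0.41 for labelled genotype in sedentary muscle, 0.079 for running in labelled WT muscle and -0.43 for the interaction.

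Of 17 genes that oxidize branched-chain amino acids and ketone bodies, 5 were called higher and none lower, beside 3.74% of all tested genes called higher. The median was 0.29, and all 17 had a positive difference, beside 50.5% of all tested genes. The count was 3 without sedentary labelled WT library 1 or 3 or trained labelled strNrip1-/- library 2 or 3. Oxct1, which activates ketone bodies for oxidation, was 212, 207 and 208 FPKM against 138, 132 and 138 FPKM (log2 0.62 ± 0.079, adjusted p = 0.00101). Bckdha, of the branched-chain ketoacid dehydrogenase, was 109, 122.9 and 116 against 69.8, 78.5 and 72.1 FPKM (log2 0.66 ± 0.093, adjusted p = 0.00195), and Hibch, of valine breakdown, differed by 0.44 ± 0.076 (adjusted p = 0.0065).

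Among 18 transcriptional regulators of oxidative metabolism, 2 were called higher and 1 lower (median 0.19), beside 3.74% and 2.53% of all tested genes. Esrra, the estrogen-related receptor alpha, was 114, 127 and 120.2 FPKM in trained labelled strNrip1-/-, 96.6, 104 and 94.05 in sedentary labelled strNrip1-/-, 70.9, 74.5 and 65.1 in trained labelled WT and 70.8, 71.3 and 69.8 FPKM in sedentary labelled WT muscle (log2 0.76 ± 0.069, adjusted p = 0.000164). The 2 labelled genotypes did not overlap, and the trained labelled strNrip1-/- libraries were the highest. Esrrb rose from 1.34 ± 0.0985 to 2.52 ± 0.125 FPKM (n = 3; adjusted p = 0.00532, limma). Rxrg, the retinoid X receptor gamma, fell from 33.8 ± 4.83 to 20.5 ± 1.18 FPKM (n = 3; adjusted p = 0.00177, limma). Ppargc1a, which encodes PGC-1alpha, had a log2 difference of -0.013 ± 0.12 (adjusted p = 0.972). Ppara, the fatty acid-sensing receptor, had one of 0.59 ± 0.22 (adjusted p = 0.146). Of 12 corepressors and associated deacetylases, Nrip1 alone was called, beside 3.74% of all tested genes called higher.

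Binding motifs of 3 factors of mitochondrial genes were searched on both strands of RefSeq promoters (GRCm38.p6, from 250 bases before to 50 after a start site), which are shown because these genes moved together. The estrogen-related receptor element TCAAGGTCA was in promoters of 126 of 27025 genes (0.466%), the NRF1 motif CGCATGCGC in 527 (1.95%) and the GABPA motif CCGGAAGTG in 608 (2.25%). No fatty acid oxidation gene held TCAAGGTCA among the 17 of 22 that matched, and Sdhd of the TCA cycle and Atp5g3 of OXPHOS did. CGCATGCGC was in 2 of these 17 (Acadm, Etfdh), in 1 of 15 TCA cycle genes (Ogdh) and in 8 of 61 nuclear OXPHOS genes (13.1%), against 4.05% of the 9627 tested genes that matched. Of 366 matched genes called higher, 9 held CGCATGCGC (2.46%) and 19 held CCGGAAGTG (5.19%), against 4.82% of matched tested genes for the latter. The windows of Etfdh (chr3:79628718-79629017, minus strand), Uqcrc1 (chr9:108936398-108936697, plus strand), Ogdh (chr11:6292308-6292607, plus strand) and Cpt2 (chr4:107923540-107923839, minus strand) are printed 5′ to 3′, with a match to CGCATGCGC, or to CCGGAAGTG in Cpt2, on either strand in capitals. None of the 3 motifs contains another. In Etfdh and Uqcrc1 the capitals are longer because the motif's 2 strands overlap there.
Etfdh: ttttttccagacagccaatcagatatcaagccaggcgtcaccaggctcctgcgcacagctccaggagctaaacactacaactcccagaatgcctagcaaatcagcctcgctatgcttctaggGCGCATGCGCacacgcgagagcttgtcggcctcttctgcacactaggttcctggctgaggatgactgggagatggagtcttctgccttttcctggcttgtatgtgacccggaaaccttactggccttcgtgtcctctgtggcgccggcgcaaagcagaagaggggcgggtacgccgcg
Uqcrc1: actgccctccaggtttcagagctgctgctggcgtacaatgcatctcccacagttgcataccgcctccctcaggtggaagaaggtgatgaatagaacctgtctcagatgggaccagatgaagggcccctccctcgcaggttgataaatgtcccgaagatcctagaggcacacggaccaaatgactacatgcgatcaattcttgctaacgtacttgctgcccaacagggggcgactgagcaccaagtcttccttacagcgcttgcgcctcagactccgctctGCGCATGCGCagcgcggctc
Ogdh: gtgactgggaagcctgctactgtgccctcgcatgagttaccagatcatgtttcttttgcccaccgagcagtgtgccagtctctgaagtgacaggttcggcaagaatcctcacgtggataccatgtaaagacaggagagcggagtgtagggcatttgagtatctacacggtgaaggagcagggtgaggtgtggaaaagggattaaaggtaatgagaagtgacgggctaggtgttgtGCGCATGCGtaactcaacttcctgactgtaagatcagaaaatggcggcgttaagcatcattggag
Cpt2: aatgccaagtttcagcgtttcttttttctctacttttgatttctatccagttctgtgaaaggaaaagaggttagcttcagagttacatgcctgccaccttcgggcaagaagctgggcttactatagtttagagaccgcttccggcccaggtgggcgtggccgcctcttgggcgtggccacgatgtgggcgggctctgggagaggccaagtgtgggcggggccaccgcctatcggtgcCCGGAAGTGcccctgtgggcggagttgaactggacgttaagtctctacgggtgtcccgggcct

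Genes of glycolysis and of glycogen metabolism were mostly lower, with calls in both directions. Of 15 glycolysis genes, Hk1 and Pfkfb1 were called higher and Pkm and Ldha lower, beside 3.74% and 2.53% of all tested genes. The median was -0.19, and 4 of the 15 had a positive difference. Their summed level was 33898 to 37122 FPKM in trained labelled strNrip1-/- and 41368 to 45113 FPKM in sedentary labelled WT muscle. From the 6 libraries alone, 5 of the 15 were called lower. Hk1, the hexokinase that binds mitochondria, was 5.44, 7.02 and 5.92 FPKM against 3.14, 3.22 and 3.02 FPKM (log2 0.86 ± 0.12, adjusted p = 0.00189). Pkm, the pyruvate kinase, was 1892, 1799 and 1753 against 2413, 2319 and 2243 FPKM (log2 -0.36 ± 0.075, adjusted p = 0.0174), and Ldha, the lactate dehydrogenase of fast muscle, differed by -0.40 ± 0.10 (adjusted p = 0.0454). The calls of Pkm and Pfkfb1 were each lost without sedentary labelled WT library 1 or 2 or trained labelled strNrip1-/- library 2 or 3 (adjusted p up to 0.0853 and 0.0801). The call of Ldha was lost without any 1 of the 6 libraries compared (adjusted p from 0.0596 to 0.149).

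Of 12 glycogen genes, 2 were called higher and 4 lower, beside 3.74% and 2.53% of all tested genes. The median was -0.27, and 3 of the 12 had a positive difference. The 2 called higher build glycogen: Gys1, the glycogen synthase, at 184, 184 and 181 FPKM against 133, 134 and 135 FPKM (log2 0.45 ± 0.052, adjusted p = 0.000627), and Gbe1, the branching enzyme (log2 0.54 ± 0.10, adjusted p = 0.00991). Gys1 was ordered without overlap, with 159, 162 and 159 FPKM in sedentary labelled strNrip1-/- and 148, 155 and 142 in trained labelled WT muscle between the 2 groups compared. The 4 called lower were Pygm, the glycogen phosphorylase, Gyg, the primer protein glycogenin, Ppp1r3a, a phosphatase subunit that targets glycogen, and Stbd1, with log2 differences from -0.54 to -0.28. None of these 4 was called after rescaling by nuclear-encoded genes, or without sedentary labelled WT library 1 or 3 or trained labelled strNrip1-/- library 2 or 3.

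Of 14 fast fiber genes, 5 were called lower and 1 higher, beside 2.53% of all tested genes called lower and 3.74% called higher. The median log2 difference was -0.40, and -0.18 after quantile normalization, with 4 called lower. Actn3, the alpha-actinin of fast fibers, was 1832, 1962 and 1769 FPKM in trained labelled strNrip1-/- and 3629, 3108 and 3121 FPKM in sedentary labelled WT muscle (log2 -0.82 ± 0.084, adjusted p = 0.00034). It was 1864, 1696 and 1697 FPKM in sedentary labelled strNrip1-/- and 3063, 3076 and 3213 FPKM in trained labelled WT muscle, so all 6 libraries labelled strNrip1-/- were below all 6 labelled WT. Mylk2, the myosin light chain kinase of skeletal muscle, was 274, 285 and 261 against 451, 401 and 412 FPKM (log2 -0.62 ± 0.10, adjusted p = 0.00445), and Mybpc2, the fast myosin-binding protein C, differed by -0.47 ± 0.079 (adjusted p = 0.00564). Casq1, the fast calsequestrin, and the light chain Myl1 were the others called lower, the call of Myl1 being lost without any 1 of the 6 libraries compared (adjusted p up to 0.136).

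Myh1, the myosin heavy chain of type IIx fibers, was the gene called higher. It was 1906, 2249.7 and 2699.8 FPKM against 1033, 1336 and 1222 FPKM (log2 0.93 ± 0.18, adjusted p = 0.01), with 2009, 1911 and 1361 FPKM in trained labelled WT and 1529, 1178 and 1478 in sedentary labelled strNrip1-/- muscle. Its largest term was the difference for running in labelled WT muscle (log2 0.54), against 0.22 for labelled genotype in sedentary muscle. Myh4, the type IIb heavy chain, was 8384, 8893 and 7045 against 10521, 8442 and 9374 FPKM and was not called (log2 -0.22 ± 0.13, adjusted p = 0.356).

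None of 13 slow fiber genes was called (median 0.094), beside 6.28% of all tested genes. The median ran from -0.22 without trained labelled strNrip1-/- library 2 to 0.45 without sedentary labelled WT library 2. Myh7, the slow myosin heavy chain, was 1.46, 5.74 and 2.38 FPKM in trained labelled strNrip1-/- and 1.85, 24.8 and 1.64 FPKM in sedentary labelled WT muscle, the second of which also stood out for Tnni1 and Tnnc1. Ankrd2, a stretch-responsive gene of slow muscle, came closest to a call with 74.6, 74.9 and 79.9 against 23.1, 46.6 and 53.4 FPKM (log2 0.98 ± 0.29, adjusted p = 0.0743), and it was called higher after rescaling to the same sum and by nuclear-encoded genes (adjusted p = 0.0336 and 0.0362). Without the 3 libraries above 15 FPKM of Myh7, an alternative chosen after seeing the data, 416 genes were called in all, 378 of them among the 800, with 18 of 22 fatty acid oxidation genes called higher and 4 of 14 fast fiber genes called lower. The slow fiber median was then 0.45, and Myl2, the slow regulatory light chain, was called higher (log2 2.72, adjusted p = 0.0477), against an adjusted p of 0.256 with all libraries.

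Mb, the oxygen-binding myoglobin, was called higher. It was 5218, 4355 and 5168 FPKM against 2099, 3189 and 2430.1 FPKM (log2 0.95 ± 0.19, adjusted p = 0.0132). Calcium handling genes were mostly lower where called (median -0.11). Of 15, 4 fell and 1 rose, beside 2.53% of all tested genes called lower and 3.74% called higher. Asph, whose locus also makes the triadin-binding protein junctin, was 93.5, 83.1 and 87.2 against 126, 132 and 126 FPKM (log2 -0.54 ± 0.06, adjusted p = 0.000515). Jph2, a junctophilin, and Cacng1, the gamma subunit of the muscle calcium channel, fell by similar sizes (log2 -0.45 and -0.63, adjusted p = 0.00221 and 0.00409), as did the kinase Camk2a, while Stim1, the calcium sensor of the reticulum, rose (log2 0.39 ± 0.069, adjusted p = 0.00688).

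**Figure D5:**
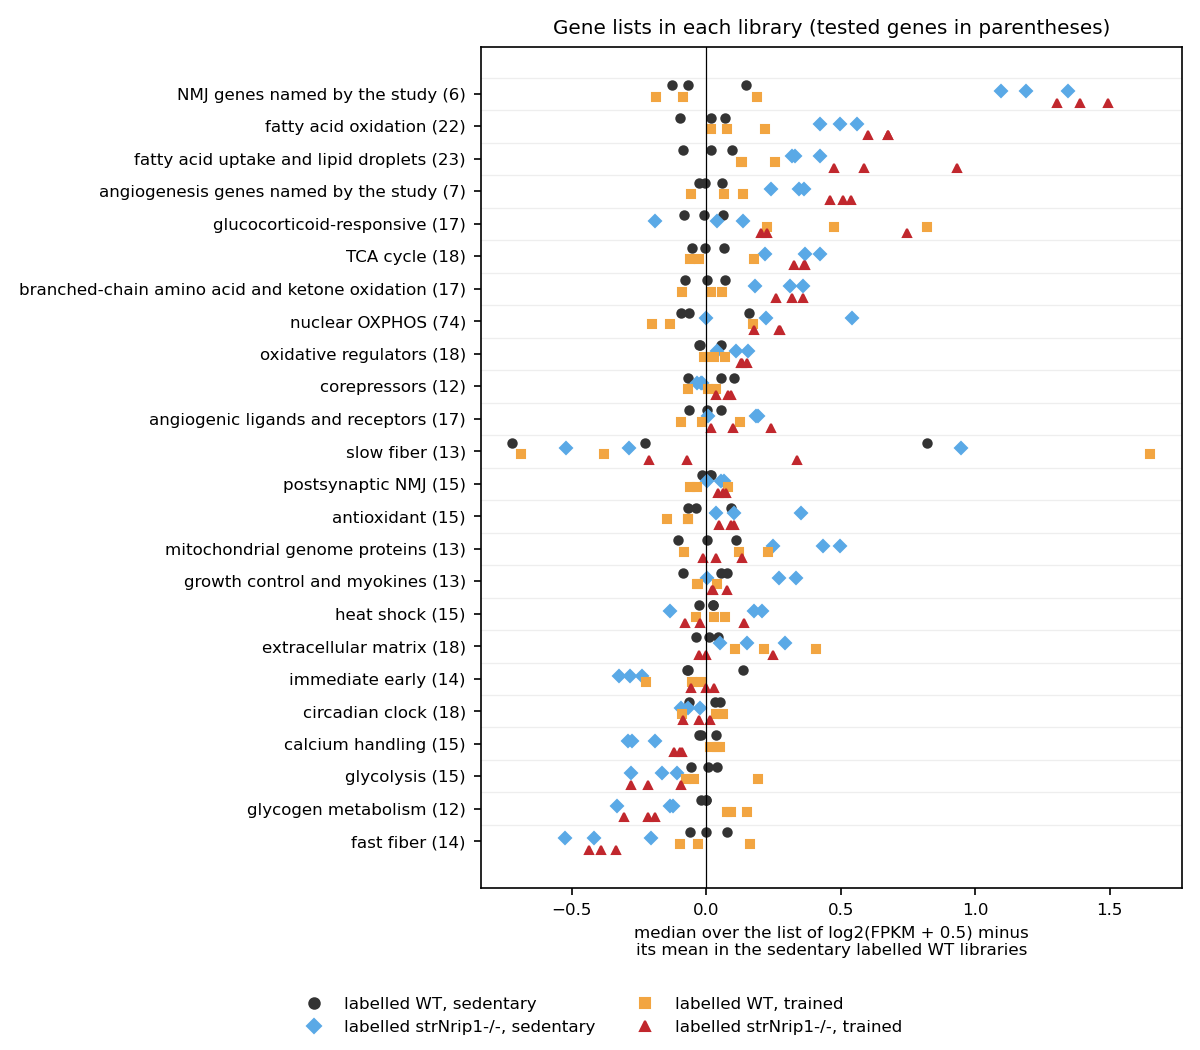
Median over each of 24 gene lists of log2(FPKM + 0.5) in each library, as the difference from the mean of the sedentary labelled WT libraries (horizontal axis), 1 point per library, with the number of tested genes in parentheses. The fatty acid oxidation medians of the trained labelled strNrip1-/- libraries lie to the right of all other libraries and the fast fiber medians of both labelled strNrip1-/- groups to the left of both labelled WT groups, while the slow fiber medians of single libraries spread widely.

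Of the 7 angiogenesis genes that the study names, 5 were called higher and none lower, beside 3.74% of all tested genes called higher. The study chose these genes on the same libraries, so their direction is not independent evidence. Tie1, an endothelial receptor, and Atp5b, an ATP synthase subunit described above, were among the 5. Fgfbp1, a secreted protein that releases fibroblast growth factors, was 10.3, 9.996 and 9.64 FPKM against 3.25, 3.58 and 4.19 FPKM (log2 1.33 ± 0.13, adjusted p = 0.000292), above all 9 other libraries. Epas1, the hypoxia-inducible factor 2 alpha, was 47.1, 55.8 and 53.3 against 35.2, 31.8 and 35.6 FPKM (log2 0.60 ± 0.11, adjusted p = 0.00881), and Egln1, a prolyl hydroxylase that marks these factors for breakdown, was 114, 116 and 116 against 82.2, 80.6 and 80.9 FPKM (log2 0.50 ± 0.059, adjusted p = 0.000688). Vegfa, the vascular endothelial growth factor, was 173, 184 and 165 against 142, 134 and 165 FPKM and was not called (log2 0.25 ± 0.13, adjusted p = 0.29), nor was Plk2 (log2 0.20 ± 0.13, adjusted p = 0.426).

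In a wider list of 17 angiogenic ligands and receptors, Fgfbp1 and Flt1 alone were called (median 0.10), beside 3.74% of all tested genes called higher. Flt1, a VEGF receptor, was 14.8, 17.2 and 16.5 against 11.1, 10.6 and 11.7 FPKM (log2 0.52 ± 0.12, adjusted p = 0.0238), and its call was lost in 5 of 12 fits with 1 library left out (each sedentary labelled WT library and trained labelled strNrip1-/- 2 and 3; adjusted p up to 0.0908). Of 12 endothelial markers, 4 were called higher and none lower, beside 3.74% of all tested genes called higher: Tie1, Flt1, Cdh5 (VE-cadherin) and Pecam1 (CD31). Kdr, Emcn and Egfl7 had negative differences and were not called (log2 -0.052, -0.19 and -0.15), and Egfl7, with 47.999 to 54.9 against 57.1 to 58.02 FPKM, was the most abundant of the 12. Tie1 was 13.2, 13.4 and 14.5 against 10.1, 9.18 and 10.3 FPKM (log2 0.46 ± 0.081, adjusted p = 0.00714), and Pecam1 was 26.05, 27.7 and 25.5 against 22.2, 20.6 and 20.03 FPKM (log2 0.33 ± 0.086, adjusted p = 0.046). The 12 markers summed to 203, 215 and 213 against 188, 183 and 183 FPKM.

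Of 8 neuromuscular junction (NMJ) genes that the study names on these libraries, 6 reached the minimum level for testing. Each of the 6 was called higher, beside 3.74% of all tested genes, and the same limit on independence holds. Musk, the receptor kinase that organizes the postsynaptic membrane, was 3.16, 3.73 and 2.84 FPKM in trained labelled strNrip1-/- and 1.17, 0.673 and 0.824 FPKM in sedentary labelled WT muscle (log2 1.438 ± 0.17, adjusted p = 0.000688). Chrna4, a neuronal-type acetylcholine receptor subunit, was 3.35, 2.68 and 3.24 against 0.991, 0.526 and 0.541 FPKM (log2 1.62 ± 0.20, adjusted p = 0.000804). Unc13c, of the family that primes synaptic vesicles, was 2.05, 1.71 and 1.64 against 0.186, 0.333 and 0.264 FPKM (log2 1.60 ± 0.18, adjusted p = 0.000501). All of these were low, and the sedentary labelled strNrip1-/- libraries overlapped the trained ones.

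Wnt16, a secreted Wnt ligand, reached 2.99, 4.89 and 4.78 FPKM against 0.876, 1.32 and 0.907 (log2 1.60 ± 0.21, adjusted p = 0.00134). Zmynd8 and Pde4a were also called higher (log2 0.36 ± 0.092 and 0.44 ± 0.11, adjusted p = 0.0388 and 0.0382), and these calls were lost in 7 and 6 of the 12 fits with 1 library left out. Chrna2, an acetylcholine receptor subunit below the filter, was at 0.508, 0.688 and 0.448 against 0, 0 and 0.0310 FPKM. Among 15 tested genes of the postsynaptic apparatus, Musk alone was called (median 0.092), beside 3.74% of all tested genes called higher. The acetylcholine receptor subunit Chrna1 had a log2 difference of 0.24 ± 0.11 (adjusted p = 0.242) and Ache, the acetylcholinesterase, one of -0.23 ± 0.10 (adjusted p = 0.205).

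Of 17 glucocorticoid-responsive genes, Cebpd, Ddit4 and Pdk4 were called higher and none lower (median 0.41), beside 3.74% of all tested genes called higher. The list's median was 0.66 for running in labelled WT muscle and 0.038 for labelled genotype in sedentary muscle. Without trained labelled strNrip1-/- library 2 the median of the combined comparison was 0.17, with 1 gene called higher and 1 lower. Cebpd, a C/EBP transcription factor, was 4.50, 8.79 and 7.68 FPKM in trained labelled strNrip1-/-, 5.37, 10.7 and 9.68 in trained labelled WT and 2.69, 1.96 and 1.83 in sedentary labelled WT muscle (log2 1.46 ± 0.26, adjusted p = 0.00784). Ddit4, an inhibitor of mTORC1, was 35.9, 28.3 and 23.1 FPKM in trained labelled strNrip1-/-, 25.3, 66.05 and 66.1 in trained labelled WT and 11.7, 9.34 and 10.1 in sedentary labelled WT muscle (log2 1.43 ± 0.34, adjusted p = 0.0325). Pdk4, the kinase that shuts pyruvate dehydrogenase, was 136, 338 and 90.9 FPKM in trained labelled strNrip1-/-, 92.2, 234 and 88.7 in trained labelled WT and 24.8 to 55.8 FPKM in sedentary labelled WT muscle (log2 2.03 ± 0.50, adjusted p = 0.0355). Its spread within the trained groups was wide, with library 2 the highest of both, and the calls of Ddit4 and Pdk4 were lost without any 1 of 6 and 5 of the 6 libraries compared (adjusted p up to 0.0994 and 0.122).

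Of 18 extracellular matrix genes, Col1a1, Col1a2 and Sparc were called higher and none lower (median 0.018), beside 3.74% of all tested genes called higher. Col1a1 was 118, 99.3 and 85.8 FPKM in trained labelled strNrip1-/-, 122.7, 133 and 103 in trained labelled WT, 66.1, 83.998 and 80.6 in sedentary labelled strNrip1-/- and 56.97, 60.4 and 55.7 in sedentary labelled WT muscle (log2 0.79 ± 0.13, adjusted p = 0.00499). The difference for running in labelled WT muscle was 1.04, beside 0.41 for labelled genotype in sedentary muscle, and missed the threshold (adjusted p = 0.0593). Col1a2 and Sparc had smaller differences (log2 0.48 ± 0.11 and 0.39 ± 0.09, adjusted p = 0.0235 and 0.028), and these calls were lost in 4 and 5 of the 12 fits with 1 library left out. Among 6 fibroblast markers Col1a1 alone was called, beside 3.74% of all tested genes called higher.

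Other stress and activity genes did not pass the test. None of 18 circadian clock genes, 14 immediate early genes or 15 heat shock genes was called, beside 6.28% of all tested genes. In lists of this size so small a share leaves few calls, so their absence sets these genes little apart. The list medians were -0.023, -0.0099 and 0.03. Nr4a1, an orphan nuclear receptor that contraction induces, was 101, 68.1 and 64.1 FPKM against 91.6, 87.003 and 94.2 FPKM (log2 -0.25 ± 0.15, adjusted p = 0.37). Hspd1, the mitochondrial chaperonin, passed the adjusted p but not the fold threshold (log2 0.23 ± 0.058, adjusted p = 0.0364). Of 15 antioxidant genes, 2 were called higher and 1 lower, beside 3.74% and 2.53% of all tested genes. Cat (catalase) and Sod2 (the mitochondrial superoxide dismutase) rose (log2 0.77 ± 0.14 and 0.51 ± 0.10, adjusted p = 0.00782 and 0.0126). The secreted peroxidase Gpx3 fell, at 96.4, 112 and 119.8 against 220.2, 180.0 and 196 FPKM (log2 -0.86 ± 0.15, adjusted p = 0.00763). The call of Sod2 was lost without sedentary labelled WT library 1 or 3 or trained labelled strNrip1-/- library 3 (adjusted p up to 0.0629).

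Fndc5, the precursor of irisin, was the 1 gene called among 13 of growth control and myokines, beside 3.74% of all tested genes called higher. It was 45.8, 46.1 and 48.5 FPKM in trained labelled strNrip1-/-, 33.5, 32.1 and 33.6 in sedentary labelled strNrip1-/-, 22.8, 23.7 and 20.1 in trained labelled WT and 16.7, 19.1 and 18.5 FPKM in sedentary labelled WT muscle (log2 1.35 ± 0.078, adjusted p = 5.26e-06). The 4 groups were ordered without overlap, and the terms were 0.85 for labelled genotype in sedentary muscle, 0.29 for running in labelled WT muscle and 0.21 for the interaction. Only the first of these was called (adjusted p = 0.000248, against 0.404 and 0.672).

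The interaction asks whether trained labelled strNrip1-/- muscle departs from the sum of genotype and running, and the 5 called genes with its smallest p-values are given here although none passed the threshold. Hnrnpa0, an RNA-binding protein, was 26.5, 30.1 and 26.98 FPKM in that group, 21.6, 20.7 and 19.4 in sedentary labelled WT, 20.5, 19.5 and 18.03 in sedentary labelled strNrip1-/- and 18.9, 19.3 and 20.3 in trained labelled WT muscle (interaction log2 0.59, adjusted p = 0.338). Cadm1, a synaptic and epithelial adhesion molecule, was 0.806, 0.634 and 0.700 FPKM in that group, 1.441 to 1.95 in sedentary labelled WT, 1.33 to 1.49 in sedentary labelled strNrip1-/- and 1.87 to 1.90 in trained labelled WT muscle (interaction log2 -0.77, adjusted p = 0.437). In both, the 3 trained labelled strNrip1-/- libraries lay outside all 9 others, as they did for Asph and Gm15464. The genes were picked by their values in this group, so this position does not show a trait particular to it. Frzb, a secreted Wnt antagonist, was highest in sedentary labelled strNrip1-/- muscle instead (8.39, 7.71 and 7.83 FPKM, against 7.29, 6.85 and 6.87 when trained; interaction log2 -0.54, adjusted p = 0.421).

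Of 6 smooth muscle and pericyte genes, Pdgfrb alone was called, higher (log2 0.35 ± 0.082, adjusted p = 0.0291), beside 3.74% of all tested genes called higher. None was called among 9 macrophage, 7 Schwann cell, 3 tested satellite cell, 5 tested blood and 7 tendon genes, beside 6.28% of all tested genes. Summed levels overlapped between the groups, at 60.2 to 70.3 against 62.1 to 72.7 FPKM for macrophages, 64.1 to 102 against 77.1 to 113 FPKM for Schwann cells and 808 to 1444 against 753 to 1811 FPKM for blood. The 4 satellite cell genes summed to 6.54 to 8.61 against 8.71 to 8.93 FPKM, which did not overlap. The same held for 30.2% of all tested genes taken singly, and each of the 3 tested satellite cell genes did overlap.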

How the data were processed

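EDL muscle RNA was profiled in 12 libraries, 4 groups of 3. Per the labels, RNA was DNase-treated and the library kit did not mark strand, so antisense partners could not be told apart. The authors quantified reads with Salmon (1.10.2) against mm10, summarized them with tximport and tested them with DESeq2 (1.44.0). The deposited expression values are FPKM per gene and library. How the FPKM were made, the annotation release and the rule for keeping genes were not given in the sources used here. The table also holds the authors' log2 fold changes and adjusted p-values, which were not used.

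Of 17752 genes, 17745 matched GENCODE M21 (GRCm38) and 16335 were protein-coding. At the depths given, 99.1% to 99.6% of low values of single-transcript genes per library came out as whole fragments (tolerance 0.15, which 30% would meet by chance). Limits from depth cover counting error only. No pair of replicates held the same values.

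A linear model of 4 group means was fitted to log2(FPKM + 0.5) of the 12744 genes averaging 0.5 FPKM or more (limma 3.58.1, R 4.3.3, trended prior, two-sided, Benjamini-Hochberg over all genes). A call needed an adjusted p under 0.05 and a fold change above 1.2. The fit was checked on simulated data. The mitochondrial share was compared by exact permutation. Named genes were Nrip1, the 10 largest rises and falls among called protein-coding genes averaging 2 FPKM or more whose groups did not overlap, the 3 smallest adjusted p-values of each list, and the 5 called genes with the smallest interaction p. Other members are named as examples, chosen after their values were seen, and some items are not reported here. The comparison and lists were chosen with earlier results of these data known. Alternatives were other pseudocounts (0.1 and 1), filters, scalings, a replicate block, no trend, the 6 libraries alone and each library left out.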

Additional observations from a re-analysis of the deposited data

Results flagged for a closer look

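In the share of FPKM from the mitochondrial genome, the mean change with running differed in sign between the 2 labelled genotypes. The share was 43.7% ± 1.35 (SD, n = 3) in sedentary and 45.96% ± 1.92 in trained labelled WT muscle, and 52.3% ± 0.918 in sedentary and 44.97% ± 1.12 in trained labelled strNrip1-/- muscle. The difference between the changes was -9.53 percentage points (exact two-sided permutation of the training labels within each labelled genotype, 400 arrangements, p = 0.0150), a test of the same values in which the pattern was seen. The null of this permutation is no change with running in either labelled genotype. A change in 1 of them alone can give a small p, so it does not test whether the 2 changes were equal. The sedentary and trained labelled WT libraries overlapped (42.2, 44.6 and 44.5% against 47.3, 46.8 and 43.8%), so no change with running is shown in them. For single mitochondrial genes no interaction passed the threshold (limma, Benjamini-Hochberg). A share cannot tell more mitochondrial from less nuclear RNA, and the cause was not tested.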

How the results depend on the processing

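The 800 calls became 795 and 803 with a pseudocount of 0.1 and 1, 763 without a filter, 764 at a mean of at least 5 FPKM, 991 from the 6 libraries alone, 700 without the variance trend, and 656, 741 and 897 with rescaling to the same sum, rescaling by nuclear genes and quantile normalization. The share called higher was 69.8% and 76.4% after the 2 rescalings, against 59.6%. The median log2 difference of all genes was at most 0.048 under any scaling. With 1 library left out the count ran from 416 to 914. With the liver and small intestine scores it was 29, and without the 3 libraries with Myh7 above 15 FPKM it was 416; both were chosen after seeing the data. With a replicate block 830 genes were called, 708 of them among the 800. Same-numbered libraries correlated between -0.10 and 0.24. Libraries of different numbers were not correlated for comparison, so these values cannot decide whether the numbers pair the libraries. No animal or batch is given for them.

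The difference in mitochondrial share ran from 0.455 to 1.88 percentage points with 1 library left out. No ribosomal or transfer RNA gene of the mitochondrial genome is listed, so that alternative does not apply. Among the named genes, directions changed for mt-Nd4l (-0.067 under quantile normalization) and for Cry1 and Acvr2b (-0.20 and -0.22 with the 2 scores), none of which was called. Of the 24 list medians, 6 that lay near 0 took the opposite sign under at least 1 alternative. They ran from -0.22 to 0.45 for slow fiber genes, -0.10 to 0.028 for the circadian clock, -0.074 to 0.070 for immediate early genes, -0.049 to 0.080 for heat shock, -0.069 to 0.13 for the extracellular matrix and -0.015 to 0.25 for angiogenic ligands (up to 0.153 with 1 library left out, and lowest without trained strNrip1-/- library 1). The causes were not tested. Over the named genes and alternatives, 2118 values kept their side of the threshold, 187 lost a call and 24 gained one. Depth limits what can be said of genes near the floor of 3 fragments.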
